A study of Mus musculus with 6 samples.

Results

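The mitochondrial solute carrier family Slc25 was followed in mouse cortical neurons depleted of Opa1. Members were taken as every gene row whose symbol starts with Slc25a, which gave 48 of 55471 rows, 47 genes and the pseudogene Slc25a5-ps. The shOpa1 neurons received a lentiviral short hairpin RNA against Opa1, and the shControl neurons received a control hairpin. Both came from CD1 mice at embryonic day 15 or slightly younger, labelled wild type apart from the knockdown, and were kept in 2 uM Ara-C, which blocks DNA synthesis and so the growth of dividing cells. Lentivirus was added on day 6 of culture and RNA was taken on day 11. Polyadenylated RNA was sequenced from 3 libraries per group, numbered 1 to 3 and labelled biological replicates. The labels name neither the cultures behind each library nor the hairpin sequences, so a p-value reflects only how these libraries vary. The comparison addresses how the transcripts of neurons change under mitochondrial stress from the knockdown of Opa1, an inner membrane fusion protein.

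Most Slc25 proteins sit in the inner mitochondrial membrane, which is otherwise closed to charged metabolites, and move nucleotides, phosphate, amino acids, cofactors, iron and other solutes into or out of the matrix. Each is built from repeats of a pair of membrane-spanning helices and exchanges or co-transports its substrate by opening in turn to either side. They are encoded in the nucleus, and most reach the inner membrane by the TIM22 import route. In neurons, members supply ADP and phosphate for ATP synthesis, carry glutamate and aspartate between matrix and cytosol, and import iron and cofactors for the respiratory chain.

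Both carriers of glutathione, both of iron and 4 of 6 of coenzyme A and other cofactors rose in shOpa1 neurons. Slc25a53, which has no assigned substrate, 2 of 3 members of the uncoupling class and 1 glutamate carrier fell. The carnitine carrier Slc25a20 also fell, but only narrowly passed the test (adjusted p = 0.0431 by edgeR's quasi-likelihood F test). It did not pass when any 1 library was left out. Of all tested genes 18.9% rose and 20.0% fell. Slc25a33, a pyrimidine nucleotide carrier, had 32.9 ± 2.98 CPM in shOpa1 neurons and 13.2 ± 0.642 CPM in shControl neurons (SD, n = 3 each), the highest fold change among members above 10 CPM. CPM are counts scaled to library size after TMM normalization. The glutathione carrier Slc25a39 was 1.84-fold and its paralog Slc25a40 1.71-fold higher in shOpa1. Slc25a18, a glutamate carrier known from astrocytes, was lower in shOpa1 on between 9 and 84 counts per library, with a log2 fold change of -2.47, or -1.84 without shControl library 3. It passed the count filter on its 3 shControl libraries, with 1 shOpa1 library over the cutoff, so a difference was built into its selection. The summed astrocyte markers were also lower, at 116 to 157 CPM in shOpa1 and 241 to 392 CPM in shControl. Most of each sum was Slc1a2, at 93.1 to 118 CPM in shOpa1 and 210 to 296 CPM in shControl. Of the 9 markers 3 fell and Gfap rose, and their part in the result for Slc25a18 was not tested.

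The promoters of 2 carrier pairs are shown because in 1 pair Slc25a33 rose and Slc25a36 did not pass the test, while in the other both members rose. Slc25a33 and Slc25a36 both carry pyrimidine nucleotides, and Slc25a39 and Slc25a40 both carry glutathione. Each sequence runs 5′ to 3′ on the gene's own strand from 250 bases before to 50 bases after the RefSeq transcript start (GRCm38.p6). They lie at chr4:149774218-149774517 on the minus strand for Slc25a33, chr9:97110992-97111291 on the minus strand for Slc25a36, chr11:102407468-102407767 on the minus strand for Slc25a39 and chr5:8422588-8422887 on the plus strand for Slc25a40. Capitals mark matches to the motifs searched.
Slc25a33: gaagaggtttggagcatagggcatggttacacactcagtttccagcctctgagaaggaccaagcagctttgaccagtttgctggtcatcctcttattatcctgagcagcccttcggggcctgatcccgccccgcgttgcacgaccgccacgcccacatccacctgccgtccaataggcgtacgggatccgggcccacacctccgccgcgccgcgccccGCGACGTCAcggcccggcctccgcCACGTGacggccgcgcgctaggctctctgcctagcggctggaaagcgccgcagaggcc
Slc25a36: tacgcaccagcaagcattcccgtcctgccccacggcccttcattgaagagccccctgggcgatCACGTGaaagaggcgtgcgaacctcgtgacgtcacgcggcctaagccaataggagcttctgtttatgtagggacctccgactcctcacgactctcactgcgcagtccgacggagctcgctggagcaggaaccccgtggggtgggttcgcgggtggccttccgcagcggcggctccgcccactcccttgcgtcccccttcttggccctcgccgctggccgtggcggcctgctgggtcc
Slc25a39: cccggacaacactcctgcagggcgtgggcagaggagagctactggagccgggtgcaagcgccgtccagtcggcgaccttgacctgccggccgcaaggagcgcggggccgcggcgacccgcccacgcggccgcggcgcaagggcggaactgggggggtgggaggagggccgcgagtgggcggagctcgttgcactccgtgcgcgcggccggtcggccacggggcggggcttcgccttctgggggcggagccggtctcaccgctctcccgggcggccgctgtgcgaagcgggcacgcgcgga
Slc25a40: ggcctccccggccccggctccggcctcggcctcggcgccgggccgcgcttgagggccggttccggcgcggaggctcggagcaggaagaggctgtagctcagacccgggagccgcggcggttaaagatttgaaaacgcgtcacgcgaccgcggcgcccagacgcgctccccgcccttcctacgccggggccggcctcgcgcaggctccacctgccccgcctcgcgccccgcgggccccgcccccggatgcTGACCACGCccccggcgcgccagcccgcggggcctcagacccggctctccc

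The motifs were searched on both strands of 32851 RefSeq promoters, 46 of which belong to 36 of the 48 members. The composite site of ATF4 and C/EBP factors, TGATGNAA, was in 3.97% of all promoters and in 0 of the 46. The core of the NRF1 site, GCGCANGCG, was in 6.25% of all promoters and in 2 of the 46, those of Slc25a3 and Slc25a31. The E-box CACGTG was in 7.15% of all promoters and in 8 of the 46, from 7 members. Among these were Slc25a33, at base 243, and Slc25a36, at base 64 of the sequences above. The core of the antioxidant response element, TGACNNNGC, was in 12.4% of all promoters and in 12 of the 46, from 9 members. It stood at base 219 of Slc25a33, on the opposite strand, and at base 250 of Slc25a40, and was in neither Slc25a39 nor Slc25a36. A match is only a description of these letters in this window.

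Opa1 itself, the check of the labels, had 10.2, 8.64 and 8.50 CPM in shOpa1 libraries, against 201.8, 204.6 and 201.9 CPM in shControl libraries. It fell by 4.48 on the log2 scale (SE 0.0876, adjusted p = 2.09e-06 by edgeR's quasi-likelihood F test after Benjamini-Hochberg). Totals ran from 29476268 to 32961580 counts in shOpa1 and from 24676709 to 28253400 in shControl. On the second principal component of log2 CPM, which held 26.4% of the variance, replicate 3 of each group lay away from replicates 1 and 2. The 7 neuron markers summed to between 3841 and 4318 CPM in shOpa1 and between 6132 and 6593 CPM in shControl. Of these, 5 fell (71.4%), or all 7 with the replicate number as a block in the model. Of all tested genes 20.0% fell, or 30.7% with the block. The 9 astrocyte markers summed to between 116 and 157 CPM in shOpa1 and between 241 and 392 CPM in shControl. Most of each sum was Slc1a2. Of the 9 markers, 3 fell (33.3%, Slc1a2, Gja1 and S100b), or 6 with the block (66.7%), and Gfap rose. Markers of microglia, endothelial and mural cells and dividing cells summed to between 3.42 and 33.2 CPM in shOpa1 and between 4.19 and 63.0 CPM in shControl, and those of the oligodendrocyte lineage to between 38.4 and 54.8 CPM in shOpa1 and between 47.1 and 75.5 CPM in shControl. No marker was at 0 in all 6 libraries.

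The levels of the members spanned more than 3 orders of magnitude. Per length, in TPM (transcript abundance scaled to gene length and library), the ADP/ATP carrier Slc25a4 stood highest, at 1293 ± 113 TPM in shOpa1 and 1046 ± 71.6 TPM in shControl (SD, n = 3 each). Next came the second ADP/ATP carrier Slc25a5, at 492 ± 20.6 TPM in shOpa1 and 313 ± 11.7 TPM in shControl. The citrate carrier Slc25a1 (337 ± 39.9 TPM in shOpa1, with a mean of 286 TPM in shControl) and the phosphate carrier Slc25a3 (352 ± 40.9 TPM in shOpa1 and 233 ± 16.9 TPM in shControl) followed. Slc25a1, Slc25a3, the glutamate carrier Slc25a22 (303 ± 35.7 TPM) and Slc25a39 (299 ± 18.2 TPM) overlapped within their SD in shOpa1 libraries. In shControl libraries Slc25a22 had 195 ± 14.7 TPM and Slc25a39 had 145 ± 7.22 TPM, below Slc25a23 at 216 ± 10.9 TPM. The 5 members with the highest mean held 59.9% of the family's TPM. TPM is scaled without TMM. With raw library totals in place of TMM the median log2 fold change of all tested genes was 0.10 in place of -0.01. That median was not computed for TPM, which also divides by gene length. Slc25a12, for example, had 104 TPM in shOpa1 and 98.2 TPM in shControl, but a log2 fold change of -0.08 on the TMM scale. Changes are therefore given on the TMM scale.

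**Figure D1:**
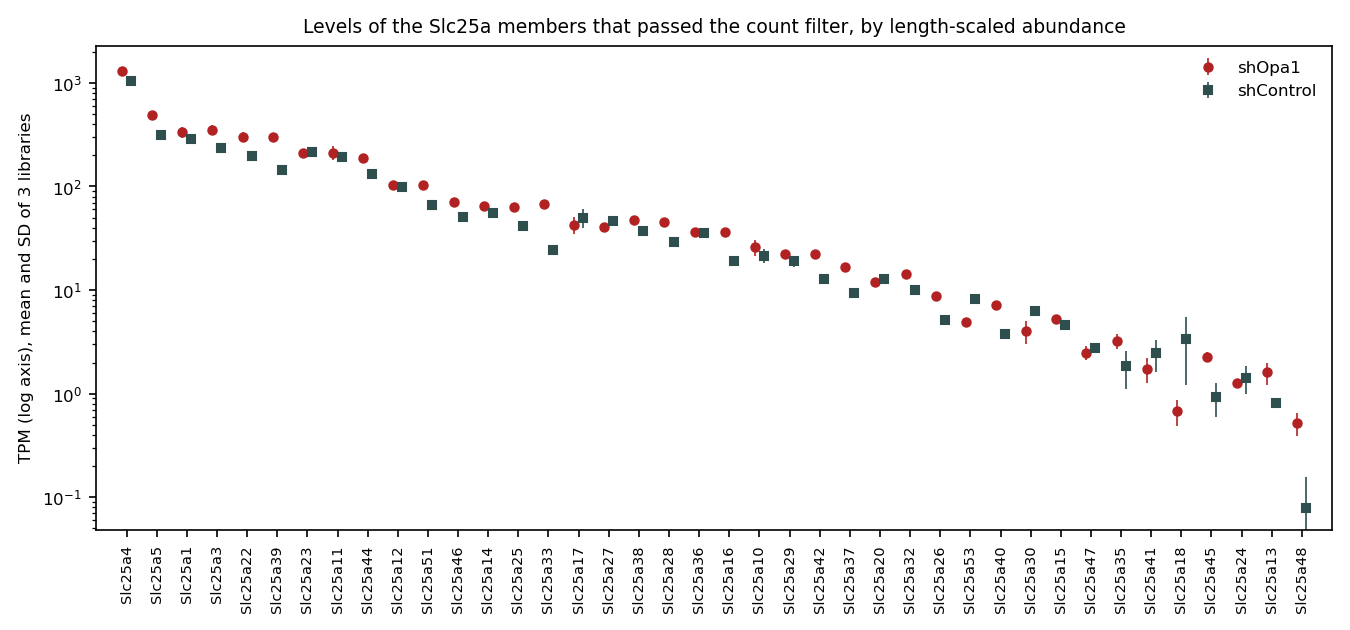
Mean level in TPM (log axis) of 40 of the 41 members that passed the count filter, with the SD of 3 libraries per group, shOpa1 as circles and shControl as squares. Slc25a4 stands highest in both groups, and the points of Slc25a33, Slc25a39 and Slc25a48 are higher in shOpa1 while that of Slc25a18 is lower.

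After the count filter of edgeR, at about 0.346 CPM in 3 libraries, 41 of the 48 members were tested among 16562 genes. In shOpa1 neurons 19 members rose (46.3% of those tested), against 18.9% of all tested genes, and 5 fell (12.2%), against 20.0% of all tested genes. The other 17 did not pass an adjusted p of 0.05. When the replicate number was added to the model as a block, edgeR called 22 members higher (53.7%) and 9 lower (22.0%), beside 28.8% and 30.7% of all tested genes. Without the libraries numbered 3, pairs 1 and 2 alone gave 21 members higher and 5 lower. In that fit 4143 of 16702 tested genes were higher and 4353 lower. Slc25a13 and Slc25a20 were no longer called, and Slc25a1, Slc25a4, Slc25a23 and Slc25a38 were called in addition. The libraries of the groups did not overlap for 19 members that were higher in shOpa1 (46.3%) and 8 that were lower (19.5%), beside 25.8% and 26.0% of all tested genes. None of the 24 called members had overlapping groups, so each necessarily moved the same way in all 3 pairs of libraries with the same number. Since they were called on these same libraries, this adds no separate evidence.

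Summed over the 48 rows, the family held 4155, 4284 and 3762 CPM in shOpa1 libraries, against 3538, 3507 and 3252 CPM in shControl libraries, with no overlap. RNA was taken from whole cultures, so fewer cells of a type and less RNA per cell cannot be told apart. The part that the lower neuron markers have in these values was not tested.

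The change was at least 2-fold for 4 called members, Slc25a33, Slc25a45 and Slc25a48 upwards and Slc25a18 downwards. Slc25a48 passed the filter on its shOpa1 libraries alone, and Slc25a18 on its 3 shControl libraries with 1 shOpa1 library over the cutoff. A difference was therefore built into the selection of both, and these counts do not bear on the size of change of the family. The other 20 lay between 1.20-fold and 1.84-fold in either direction. In the authors' deposited table, 43 members have an adjusted p, with 19 higher and 5 lower in shOpa1. Of those, 18 of the higher and 4 of the lower were also called here. The rest, Slc25a4 and Slc25a23, were called here only in some other fits, among them that with the replicate block. The terms of the authors' model may differ from those of the main fit. The share of all genes called in their table was not computed, so these counts stand without a background.

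**Figure D2:**
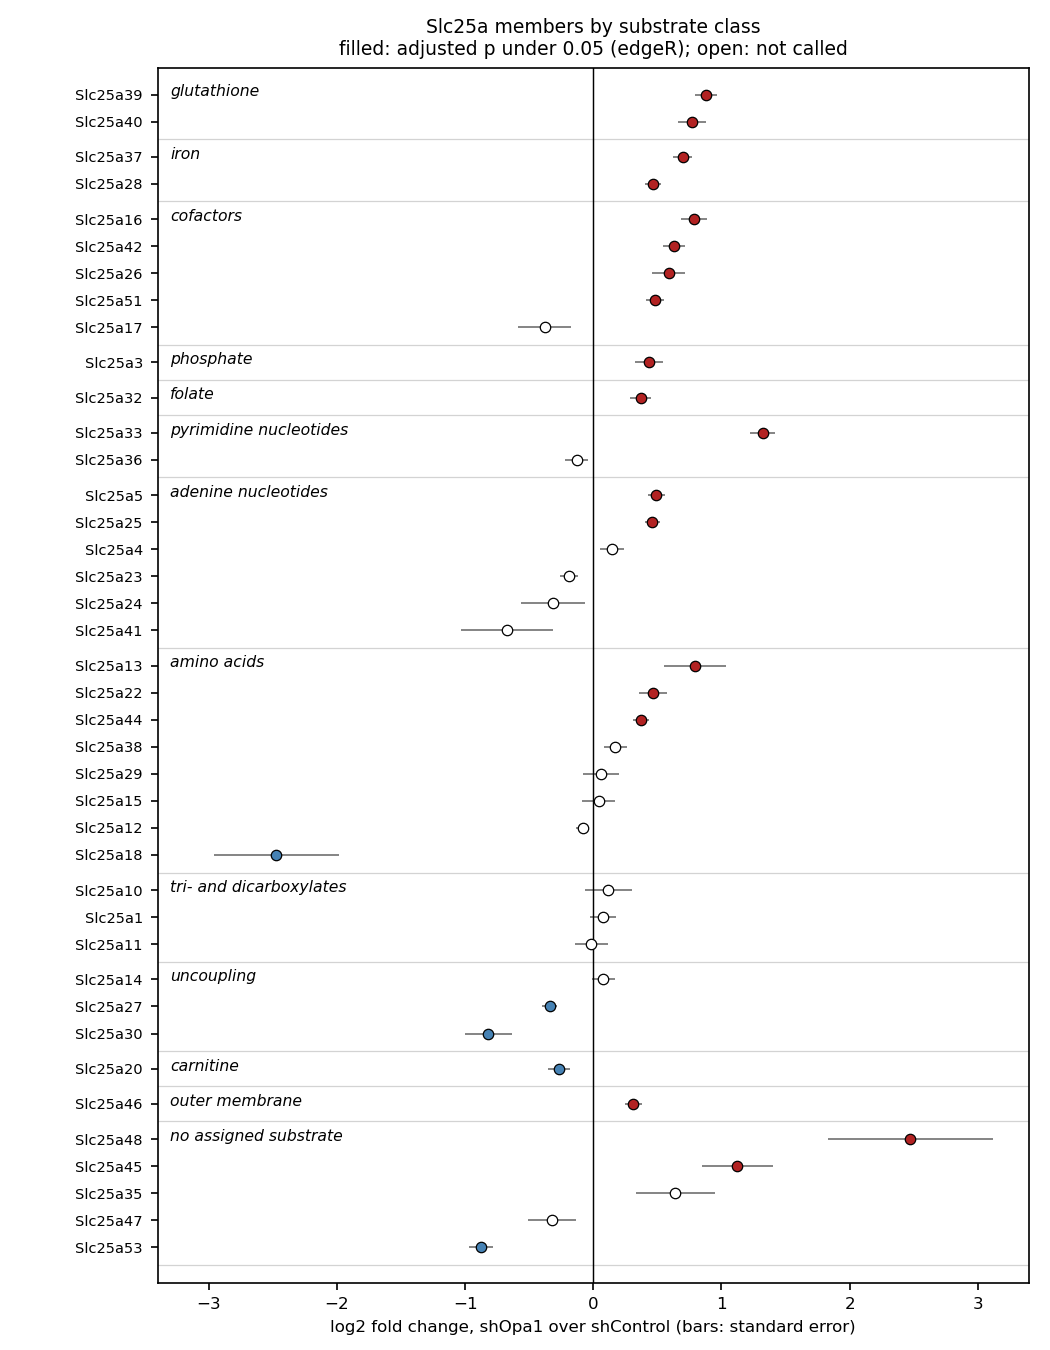
Log2 fold change of shOpa1 over shControl (x axis) for 40 of the 41 members tested, grouped by substrate class, with bars of 1 standard error. Filled points passed an adjusted p of 0.05, in the glutathione and iron classes all members to the right of 0, and in the uncoupling class 2 of 3 members to the left.

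In the glutathione class both members rose. Slc25a39 and Slc25a40 bring glutathione, the main soluble antioxidant thiol, into the matrix. Slc25a39 (ENSMUSG00000018677, chr11:102402985-102407946, minus strand, GRCm38) had 209.7, 226 and 194 CPM in shOpa1 libraries, against 118, 120.2 and 104 CPM in shControl libraries. It rose by 0.88 on the log2 scale (standard error 0.0833, edgeR adjusted p = 0.00032). Slc25a40 (ENSMUSG00000054099) had 16.0, 15.0 and 15.1 CPM in shOpa1 libraries, against 9.85, 8.11 and 9.08 CPM in shControl libraries. Here too every shOpa1 library lay above every shControl library, with a log2 fold change of 0.77 and a standard error of 0.106 (edgeR, adjusted p = 0.00146). The class median of 0.83 was 0.75, 0.88 and 0.79 in pairs 1, 2 and 3.

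Both mitoferrins, which import iron for haem and iron-sulphur clusters, rose as well. Slc25a37, mitoferrin 1, is best known from developing red cells, and Slc25a28, mitoferrin 2, from other tissues. Slc25a37 (ENSMUSG00000034248) had 25.3, 25.3 and 26.9 CPM in shOpa1 libraries, against 15.7, 15.7 and 16.4 CPM in shControl libraries, a log2 fold change of 0.70 (standard error 0.0751, edgeR adjusted p = 0.000534). Of its exon bases 6.33% are shared with genes on the opposite strand. Slc25a28 (ENSMUSG00000040414) had 43.0, 43.2 and 44.0 CPM in shOpa1 libraries, against 31.2, 32.2 and 30.8 CPM in shControl libraries, a log2 fold change of 0.47 (standard error 0.0598, edgeR adjusted p = 0.00109). Replicates of 1 group were close for both genes, and the groups did not overlap.

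Of the 6 cofactor carriers, 4 rose and 0 fell, beside 18.9% and 20.0% of all tested genes. Slc25a16 and Slc25a42, both linked to coenzyme A, had log2 fold changes of 0.79 (standard error 0.101, edgeR adjusted p = 0.00108) and 0.63 (standard error 0.0852, edgeR adjusted p = 0.00135). Slc25a16 had 47.1, 47.1 and 40.1 CPM in shOpa1 libraries, against 28.0, 26.5 and 23.2 CPM in shControl libraries. Slc25a42 had 34.2, 32.1 and 35.0 CPM in shOpa1 libraries, against 23.0, 22.6 and 19.8 CPM in shControl libraries. No shOpa1 library of either gene fell to the level of a shControl library. Slc25a26, which brings in the methyl donor S-adenosylmethionine, had 10.7, 10.6 and 10.6 CPM in shOpa1 libraries, against 6.79, 8.18 and 6.19 CPM in shControl libraries, a log2 fold change of 0.59 (standard error 0.129, edgeR adjusted p = 0.01). Slc25a51, the NAD carrier, rose by 0.48 on the log2 scale (edgeR, adjusted p = 0.00174).

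The other two cofactor carriers did not pass the test. Of these, Slc25a17, a carrier of the peroxisome and not of the mitochondrion, had 23.8, 36.4 and 33.1 CPM in shOpa1 libraries, against 31.7, 50.0 and 39.6 CPM in shControl libraries. Its groups overlapped (log2 fold change -0.38, edgeR adjusted p = 0.197), while in every pair the shOpa1 library was lower, and the fit with the replicate block gave an adjusted p of 0.000285.

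The pyrimidine nucleotide carriers, which supply precursors for mitochondrial DNA and RNA, did not share 1 result. Slc25a33 (ENSMUSG00000028982, chr4:149744036-149774277, minus strand, GRCm38) had 33.1, 35.7 and 29.8 CPM in shOpa1 libraries, against 13.7, 13.3 and 12.5 CPM in shControl libraries. It rose by 1.32 on the log2 scale (standard error 0.0949, edgeR adjusted p = 0.000107) and was higher in 3 of 3 shOpa1 libraries. Of its exon bases 14.9% overlap Gm13068 on the opposite strand, so reads of that gene cannot be told apart from its own there. Slc25a36 (ENSMUSG00000032449) had 94.5, 92.7 and 81.6 CPM in shOpa1 libraries, against 108, 95.8 and 90.4 CPM in shControl libraries, and its groups overlapped (log2 fold change -0.13, edgeR adjusted p = 0.299, with the replicate block 0.0445). Per length, Slc25a33 stood at 1.86 times the TPM of Slc25a36 in shOpa1 neurons and at 0.684 times in shControl neurons.

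**Figure D3:**
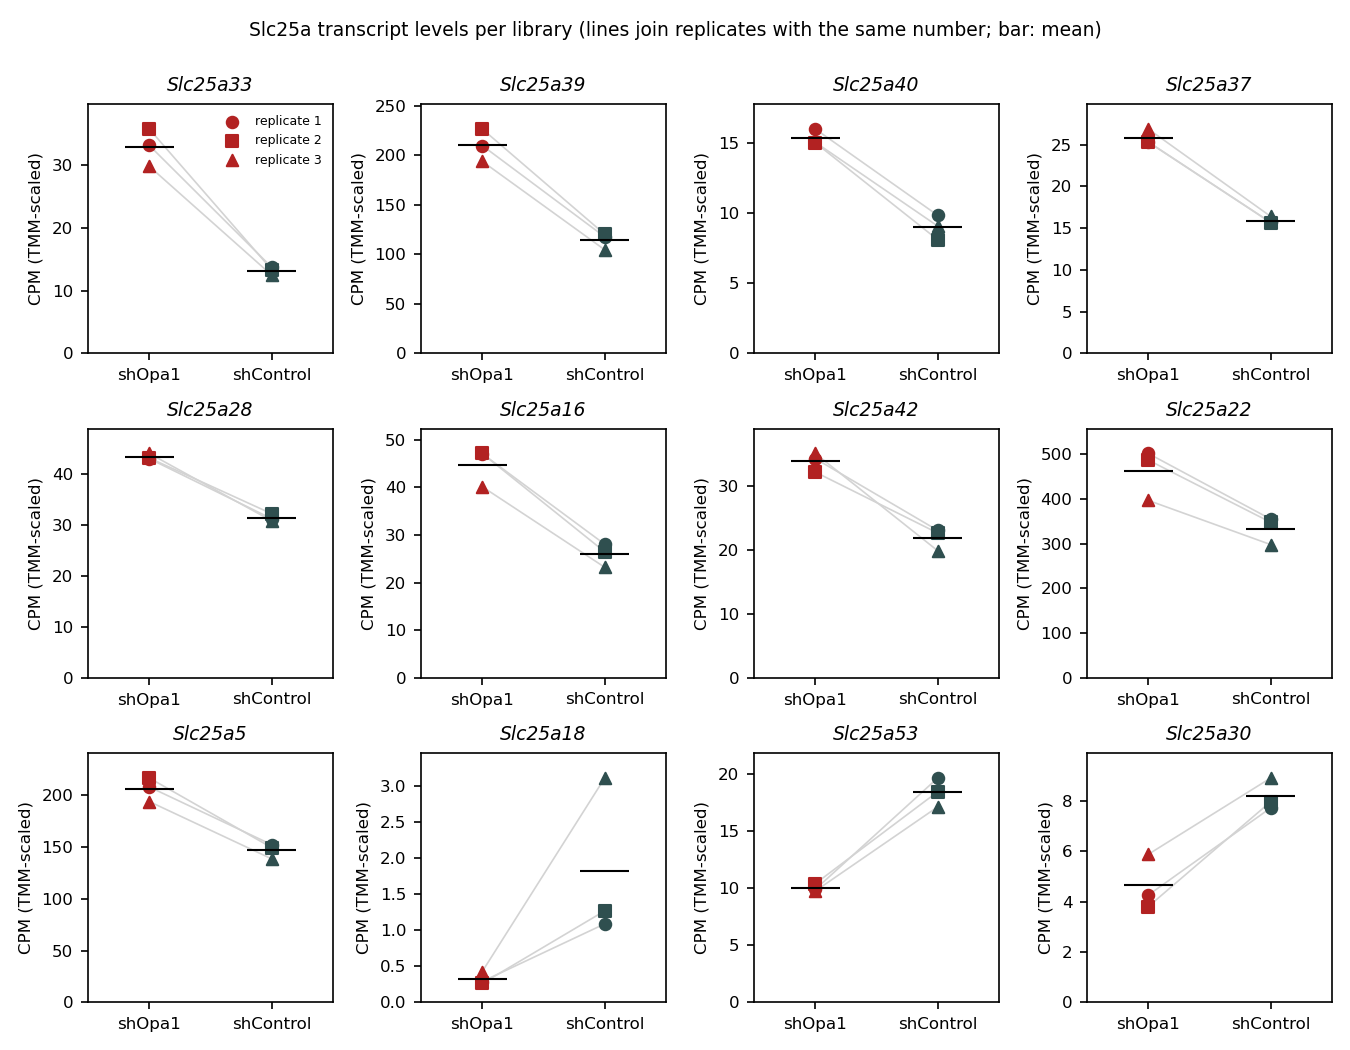
TMM-scaled CPM of 12 members in each library, shOpa1 on the left and shControl on the right, with symbols for the replicate number, grey lines between libraries with the same number and bars at the group means. For all 12 members shown the groups do not overlap, and Slc25a18, Slc25a53 and Slc25a30 are lower in shOpa1.

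Phosphate and adenine nucleotides are the substrates of ATP synthesis. Slc25a3, the phosphate carrier, had 521, 547 and 426 CPM in shOpa1 libraries, against 393, 381 and 332 CPM in shControl libraries, a log2 fold change of 0.43 (standard error 0.109, edgeR adjusted p = 0.0175). Library 3 was the lowest in both groups, and the groups did not overlap. Leaving out shOpa1 library 1, shOpa1 library 2 or shControl library 2 gave an adjusted p of 0.0632, 0.0651 or 0.0517. Of the ADP/ATP carriers, which exchange matrix ATP for cytosolic ADP, Slc25a5 had 208, 217 and 194 CPM in shOpa1 libraries, against 152, 149 and 138 CPM in shControl libraries. It rose by 0.49 on the log2 scale (standard error 0.0674, edgeR adjusted p = 0.00145). Slc25a5 has many processed copies in the genome, so its counts are uncertain to the extent that reads were split among them. Its annotated pseudogene row Slc25a5-ps held between 0 and 4 counts per library.

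Slc25a4, the more abundant ADP/ATP carrier, had 798, 838 and 688 CPM in shOpa1 libraries, against 747, 721 and 636 CPM in shControl libraries. Its groups overlapped (log2 fold change 0.14, edgeR adjusted p = 0.273), while it was higher in shOpa1 in every pair and had an adjusted p of 0.0135 with the replicate block. The testis form Slc25a31 was below the filter at 1 to 4 counts per library.

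The calcium-activated ATP-Mg/phosphate carriers, which set the size of the matrix adenine nucleotide pool, did not share 1 direction. Slc25a25 had 130.4, 129 and 122 CPM in shOpa1 libraries, against 89.2, 95.6 and 92.2 CPM in shControl libraries, a log2 fold change of 0.46 (standard error 0.0592, edgeR adjusted p = 0.00112). Slc25a23 had 265, 281 and 309.7 CPM in shOpa1 libraries, against 314, 327 and 335 CPM in shControl libraries. It was lower in all shOpa1 libraries without passing the test (log2 fold change -0.19, edgeR adjusted p = 0.0721), and passed with the replicate block (adjusted p = 0.00304). Slc25a24 had 1.10, 1.05 and 1.19 CPM in shOpa1 libraries, against 1.22, 1.12 and 1.82 CPM in shControl libraries. These values overlapped, as did those of Slc25a41, a relative without calcium-binding domains, at 0.741, 0.584 and 0.428 CPM in shOpa1 libraries, against 1.09, 1.16 and 0.556 CPM in shControl libraries. Its adjusted p was 0.18, and 0.0463 with the replicate block. The median log2 fold change of the 6 tested adenine nucleotide carriers was -0.02.

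Among the 8 tested amino acid carriers, 3 rose and 1 fell, beside 18.9% and 20.0% of all tested genes. Slc25a22, the main glutamate carrier by level, had 501, 487 and 396 CPM in shOpa1 libraries, against 355, 347 and 298 CPM in shControl libraries. Its log2 fold change was 0.47 (standard error 0.109, edgeR adjusted p = 0.0127), and no libraries overlapped between groups. Without shOpa1 library 2 the adjusted p was 0.0501. Slc25a44, known in mouse as a carrier of branched-chain amino acids, rose by 0.37 on the log2 scale (edgeR, adjusted p = 0.00286).

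The aspartate/glutamate carriers, which drive the malate-aspartate shuttle, stood far apart in level per length, with 98.2 ± 5.28 TPM of Slc25a12 and 0.821 ± 0.0365 TPM of Slc25a13 in shControl neurons (SD, n = 3). Slc25a12 (aralar), the neuronal form, had 194, 192 and 195 CPM in shOpa1 libraries, against 205, 200.3 and 209.8 CPM in shControl libraries. Although every shOpa1 library was lower, it did not pass the test (log2 fold change -0.08, edgeR adjusted p = 0.247). Slc25a13 (citrin), the liver form, had 1.55, 1.20 and 1.90 CPM in shOpa1 libraries, against 0.838, 0.934 and 0.890 CPM in shControl libraries. It rose by 0.80 on the log2 scale (standard error 0.241, edgeR adjusted p = 0.0353), while in the authors' deposited table its adjusted p was 0.0917. It also missed the threshold without any 1 library other than shOpa1 library 2 (adjusted p 0.0746 to 0.102). Slc25a15 for ornithine, Slc25a29 for basic amino acids and Slc25a38 for glycine had log2 fold changes of 0.04, 0.06 and 0.17 and overlapping groups, and Slc25a38 passed with the replicate block (adjusted p = 0.0314).

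Slc25a18, the second glutamate carrier, fell. This gene (ENSMUSG00000004902, chr6:120773578-120794336, plus strand, GRCm38) had 9, 9 and 14 counts in shOpa1 libraries, against 26, 34 and 84 counts in shControl libraries. In CPM it stood at 0.290, 0.263 and 0.428 in shOpa1 libraries, against 1.09, 1.27 and 3.11 in shControl libraries, so shControl library 3 held most of that group's reads. It passed the filter on its 3 shControl libraries, with 1 shOpa1 library over the cutoff, so a difference was built into its selection. Its log2 fold change of -2.47 (standard error 0.487, edgeR adjusted p = 0.00658) was -1.84 without that library (adjusted p = 0.00576). The astrocyte marker sum, most of it Slc1a2, was 116, 117 and 157 CPM in shOpa1 libraries, against 241, 279 and 392 CPM in shControl libraries. Library 3 was the highest of its group for both. The part that the astrocyte markers have in the result was not tested.

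The single carriers of folate and carnitine moved in opposite directions. Slc25a32, which brings folate into the matrix for 1-carbon metabolism, had 22.9, 22.7 and 21.2 CPM in shOpa1 libraries, against 16.1, 17.5 and 18.1 CPM in shControl libraries. It rose by 0.37 on the log2 scale (standard error 0.0841, edgeR adjusted p = 0.0117), with an adjusted p of 0.0533 without shOpa1 library 1 and 0.0501 without shOpa1 library 2. Slc25a20, which exchanges carnitine for acylcarnitines on their way to fatty acid oxidation, had 15.0, 14.9 and 13.9 CPM in shOpa1 libraries, against 17.6, 16.7 and 18.4 CPM in shControl libraries. It fell by 0.27 on the log2 scale, narrowly past the threshold (standard error 0.0859, edgeR adjusted p = 0.0431), and missed it when any 1 library was left out (adjusted p 0.0683 to 0.108). In the authors' deposited table its adjusted p was 0.0625.

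The uncoupling class is named for proteins related to those that let protons leak back into the matrix. In it 2 of 3 members fell, beside 20.0% of all tested genes. Slc25a27 (uncoupling protein 4), a form of the brain, had 41.9, 41.3 and 39.8 CPM in shOpa1 libraries, against 53.3, 52.0 and 50.4 CPM in shControl libraries, a log2 fold change of -0.34 (standard error 0.0605, edgeR adjusted p = 0.00424). Slc25a30 had 4.25, 3.80 and 5.87 CPM in shOpa1 libraries, against 7.71, 7.96 and 8.90 CPM in shControl libraries, a log2 fold change of -0.82 (standard error 0.184, edgeR adjusted p = 0.0111). Neither gene had overlapping groups. Slc25a14 (uncoupling protein 5) had 35.5, 40.8 and 41.6 CPM in shOpa1 libraries, against 36.9, 39.9 and 34.7 CPM in shControl libraries, with overlap and a log2 fold change of 0.08 (edgeR, adjusted p = 0.521). Of the uncoupling proteins outside the Slc25a symbols, Ucp2 had 1.39, 1.31 and 1.38 CPM in shOpa1 libraries, against 1.01, 1.01 and 1.59 CPM in shControl libraries, and Ucp1 and Ucp3 were below the filter.

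The 3 tested carriers of tricarboxylates and dicarboxylates did not pass the test. Slc25a1 had 198, 199.9 and 158 CPM in shOpa1 libraries, against 183, 178 and 166 CPM in shControl libraries (log2 fold change 0.08, edgeR adjusted p = 0.586). Slc25a10, which exchanges malate or succinate for phosphate, and Slc25a11, which exchanges 2-oxoglutarate for malate, had log2 fold changes of 0.12 and -0.01. All 3 had overlapping groups.

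Slc25a46 differs from the others by its place in the outer membrane, where it binds fusion and cristae proteins, and no transport is known for it. It had 94.0, 95.3 and 101 CPM in shOpa1 libraries, against 78.1, 73.4 and 82.6 CPM in shControl libraries. The rise was 0.31 on the log2 scale (standard error 0.068, edgeR adjusted p = 0.0098), with no overlap between groups.

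Of the 9 members placed in no substrate class, 5 were tested. Slc25a53 had 9.89, 10.4 and 9.75 CPM in shOpa1 libraries, against 19.7, 18.5 and 17.1 CPM in shControl libraries. Its log2 fold change of -0.88 (standard error 0.0934, edgeR adjusted p = 0.000511) had the smallest p among the members that fell. Slc25a45 had 1.45, 1.58 and 1.77 CPM in shOpa1 libraries, against 0.671, 0.523 and 1.00 CPM in shControl libraries, a log2 fold change of 1.12 (standard error 0.277, edgeR adjusted p = 0.0162). Without shOpa1 library 2, shControl library 1 or shControl library 2 its adjusted p was 0.0506, 0.0595 or 0.0583. Slc25a48 had 11, 20 and 13 counts in shOpa1 libraries, against 0, 2 and 4 counts in shControl libraries. It passed the filter on its shOpa1 libraries alone, so a difference was built into its selection (log2 fold change 2.47, standard error 0.643, edgeR adjusted p = 0.0197). Leaving out shControl library 1 gave 1.96 and leaving out shControl library 3 gave 3.37, and without shOpa1 library 2 or shControl library 2 the adjusted p was 0.0738 or 0.0764.

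Slc25a35 and Slc25a47, also in no class, had log2 fold changes of 0.64 and -0.32 and adjusted p of 0.143 and 0.209 (edgeR). Slc25a35 had 3.58, 2.77 and 2.72 CPM in shOpa1 libraries, against 1.63, 2.88 and 1.30 CPM in shControl libraries. Its groups overlapped, and it passed with the replicate block (adjusted p = 0.0353), although in pair 2 the shOpa1 library was slightly lower. Slc25a35 shares 31.3% of its exon bases with Rangrf on the opposite strand. The 7 members below the filter were Slc25a2, Slc25a21, Slc25a31, Slc25a34, Slc25a43, Slc25a54 and Slc25a5-ps. They held between 0 and 14 counts per library, and 4 of them had a library at 0.

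Carriers of 1 substrate often come as a common and a rarer form, so 9 such pairs were compared by the log2 ratio of their CPM, after adding 0.5 CPM to each. For 7 of the 9 pairs the ratios of the shOpa1 and shControl libraries did not overlap, each with p = 0.1 in an exact two-sided permutation test, the smallest that 3 against 3 libraries allow, and 0.129 after adjustment over the 9 pairs. No pair could therefore pass 0.05. Among single genes, 25.8% of all tested genes were higher in shOpa1 without overlap and 26.0% lower. No such share was computed for ratios of other genes, and 2 of the pairs share Slc25a23. The count of 7 is thus not a result about carrier pairs as such. The ratio of Slc25a33 over Slc25a36 was -1.43 ± 0.0682 in shOpa1 and -2.85 ± 0.0707 in shControl (SD, n = 3 each), a difference of 1.41. That of Slc25a22 over Slc25a18 was 9.12 ± 0.331 in shOpa1 and 7.26 ± 0.782 in shControl, a difference of 1.86. Slc25a18 passed the count filter on its 3 shControl libraries, with 1 shOpa1 library over the cutoff. A higher ratio in shOpa1 was therefore built into the selection of this pair. In every shOpa1 library Slc25a18 also lay below the added 0.5 CPM, so the added value sets the size of the difference. It was 2.51 with 0.1 CPM added, 1.49 with 1 CPM added and 1.41 without shControl library 3.

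Smaller differences separated the other pairs. Slc25a5 over Slc25a4 was -1.90 ± 0.0685 in shOpa1 and -2.25 ± 0.0501 in shControl, a difference of 0.35. Slc25a37 over Slc25a28 was -0.74 ± 0.0309 in shOpa1 and -0.96 ± 0.0643 in shControl, a difference of 0.22. In both pairs the form with the lower TPM gained on its partner. The differences were 0.63 for Slc25a13 over Slc25a12, 0.65 for Slc25a25 over Slc25a23 and 0.41 for Slc25a14 over Slc25a27. For Slc25a40 over Slc25a39 the ratio was -3.73 ± 0.124 in shOpa1 and -3.59 ± 0.191 in shControl, with overlap (difference -0.13, exact permutation p = 0.4). Slc25a24 over Slc25a23 was -7.47 ± 0.0756 in shOpa1 and -7.45 ± 0.247 in shControl, again with overlap (difference -0.02, exact permutation p = 1).

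**Figure D4:**
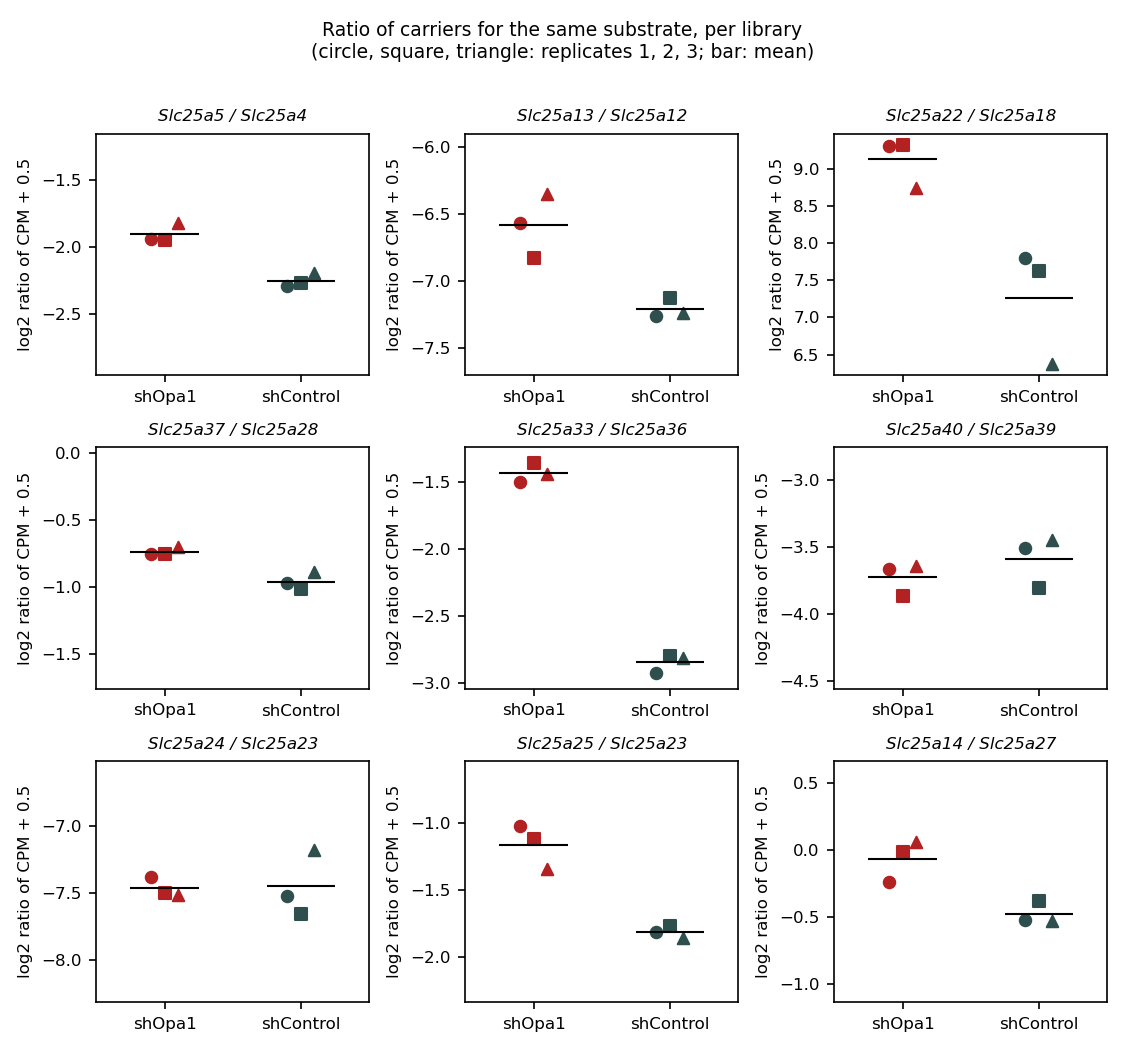
Log2 ratio of CPM, after adding 0.5 CPM, of the first over the second named carrier of 9 pairs in each library, shOpa1 on the left and shControl on the right, with bars at the group means. The groups do not overlap for 7 pairs, and do for Slc25a40 over Slc25a39 and Slc25a24 over Slc25a23.

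Genes that work with the carriers were read from lists of partners. Of 11 genes of the TIM22 route, which inserts carriers into the inner membrane, 5 rose (45.5%) and 1 fell (9.09%), beside 18.9% and 20.0% of all tested genes. The log2 fold changes were 0.48 for Timm29, a subunit of the TIM22 complex, 0.43 for Tomm70a, the outer membrane receptor of carriers, and 0.41 for the small chaperone Timm8b (edgeR adjusted p = 0.00085, 0.00102 and 0.00341). Tomm20, the general import receptor, rose by 0.44 (edgeR, adjusted p = 0.00319). Agk, a lipid kinase that is also a TIM22 subunit, had 34.6, 34.0 and 29.1 CPM in shOpa1 libraries, against 46.2, 43.0 and 43.6 CPM in shControl libraries (log2 fold change -0.44, edgeR adjusted p = 0.00587). The list had a median log2 fold change of 0.33 beside -0.01 for all tested genes. Of 5 family members with other symbols 3 were tested, and Mtch2, an outer membrane insertase, rose by 0.44 (edgeR, adjusted p = 0.00122), while Mtch1 had a log2 fold change of -0.17 (adjusted p = 0.0534, with the replicate block 0.00438).

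Of 13 other inner membrane transporters, 2 rose and 2 fell (15.4% each way), no more than the 18.9% and 20.0% of all tested genes. Sfxn4, a sideroflexin linked to iron-sulphur clusters and complex I, had 15.0, 16.1 and 13.4 CPM in shOpa1 libraries, against 6.12, 5.27 and 6.12 CPM in shControl libraries, a log2 fold change of 1.35 (edgeR, adjusted p = 0.000269). Sfxn1, a serine transporter, rose by 0.37 (edgeR, adjusted p = 0.00339). In the opposite direction, Abcb10, which stabilises mitoferrin 1 in mouse red cell precursors, had 19.0, 18.3 and 23.0 CPM in shOpa1 libraries, against 39.7, 38.6 and 44.8 CPM in shControl libraries. Abcb10 fell by 1.03 on the log2 scale (edgeR, adjusted p = 0.000539), with no overlap between groups.

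Of 4 enzymes of the malate-aspartate shuttle 2 rose (50.0%) and 0 fell, beside 18.9% and 20.0% of all tested genes. Those that rose were the cytosolic enzymes. Got1 had 263, 272 and 226 CPM in shOpa1 libraries, against 163, 158 and 142 CPM in shControl libraries, a log2 fold change of 0.72 (edgeR, adjusted p = 0.000974). Mdh1 had 822, 842 and 582 CPM in shOpa1 libraries, against 531, 531 and 430.4 CPM in shControl libraries, a log2 fold change of 0.59 (edgeR, adjusted p = 0.0228). The matrix enzymes Got2 and Mdh2 had log2 fold changes of 0.19 and -0.30 and did not pass the test (edgeR adjusted p = 0.0667 and 0.138). Got2 was higher and Mdh2 lower in shOpa1 in every pair, and both passed with the replicate block (adjusted p = 0.00259 and 0.000135). Of 6 enzymes on either side of the carnitine carrier, 1 rose (16.7%) and 2 fell (33.3%), beside 18.9% and 20.0% of all tested genes. Cpt1a fell by 0.77, Cpt2 fell by 0.64 and Acadvl rose by 0.31 on the log2 scale (edgeR adjusted p = 0.0325, 0.019 and 0.029). Cpt1a and Cpt2 were low, at means of 1.48 and 2.75 CPM in shOpa1 and 2.53 and 4.27 CPM in shControl. Cpt1c, at 115 CPM in shOpa1 and 137 CPM in shControl, did not pass (log2 fold change -0.26, edgeR adjusted p = 0.0865, with the replicate block 0.00987).

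Of 9 tested partners of the ADP/ATP carriers in energy transfer, 3 rose and 3 fell (33.3% each way), beside 18.9% and 20.0% of all tested genes. The adenylate kinases of the matrix fell, Ak3 by 0.98 and Ak4 by 0.89 on the log2 scale (edgeR adjusted p = 0.000272 and 0.00302). Ckb, the brain creatine kinase, fell by 0.83 (edgeR, adjusted p = 0.00135). Over the 6 lists 22 of 46 tested genes passed the test (47.8%), beside 38.9% of all tested genes. With the replicate block 34 did (73.9%), beside 59.5% of all tested genes.

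The 7-base sequence GAAACTA was looked up in the longest 3′ untranslated region of each tested gene. It was chosen because genes that hold it were often lower in shOpa1 in these data, so their counts only describe that choice. Of 1340 genes that hold it (9.67% of 13862 with such a region) 107 rose and 676 fell, beside 2869 and 3015 of the 13862. Among the 41 tested members it was present in 1 (2.44%), Slc25a48, whose direction was fixed by the count filter. None of the 5 members that fell held it.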

How the data were processed

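RNA was sequenced from 3 shOpa1 and 3 shControl libraries, made per the labels' protocols with a stranded kit that selects polyadenylated RNA. The authors deposited raw read counts per gene, which per the file headers come from featureCounts 1.6.0, run on read pairs against Ensembl 99 gene models (GRCm38) without a strand option. Reads of overlapping genes on opposite strands can therefore not be told apart. HISAT2, DESeq2 and mm10 are named in the submitters' processing notes. The authors also deposited a comparison table with a log2 fold change, p-value and test score per gene and counts divided by size factors, a normalised signal, of which only fold changes and adjusted p were used.

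Groups were compared with edgeR's quasi-likelihood F test (edgeR 4.0.16 in R 4.3.3; TMM factors, filterByExpr, robust dispersions) with group as the only term, and p-values were adjusted by Benjamini-Hochberg over 16562 genes at 0.05. It was tested on simulated data. Standard errors are the fold change over the root of F. Symbols were found for 55144 of 55471 identifiers, 0 rows named no gene and 0 value columns lacked a sample. TPM used the deposited gene lengths. Deviations from group means correlated at 0.519, 0.537 and 0.666 between libraries with the same number, each library matching its own number best, so the numbers were taken as pairs, from the data and not from the labels. No library repeated another within sampling noise (chi-square per degree of freedom 6.11 to 30.8). Pair ratios used Python 3.11.15 and scipy 1.17.1. Promoters are from RefSeq, and 3′ untranslated regions from GENCODE M21.

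Values per library were given for members with an adjusted p under 0.05 and a log2 fold change of at least 0.5 in size, the 5 of highest TPM, the paired carriers and the smallest p of each class, and up to 4 genes per partner list. Values of some genes that this rule names are not reported here. Agk, Slc25a17, Slc25a35 and Slc25a41 were given after their values were seen. The members, lists and sequence searches were chosen with earlier results of these data known. Alternatives were other scalings, no filter, DESeq2 1.42.0, limma-voom (limma 3.58.1), the replicate block, replicate 3 as a second batch, pairs 1 and 2 only and each library left out.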

Additional observations from a re-analysis of the deposited data

How the results depend on the processing

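The number of members called was 18 to 31 over 14 other fits, in which all tested genes gave 4589 to 9851 calls. Of the called members 0 changed sign. Of the 24 called members 17 passed in every fit. Slc25a3, Slc25a13, Slc25a20, Slc25a22, Slc25a32, Slc25a45 and Slc25a48 lost the call in at least 1, mostly in fits without 1 library, which have fewer samples. Without shOpa1 replicate 2, 6 were lost (Slc25a3, Slc25a20, Slc25a22, Slc25a32, Slc25a45 and Slc25a48), and Slc25a13 and Slc25a20 were lost under DESeq2. With the replicate block 9 members were lower in place of 5, all tested genes gave 9851 calls (4770 higher and 5081 lower) in place of 6442, and 34 partner genes passed in place of 22. The block added calls of Slc25a4, Slc25a17, Slc25a23, Slc25a35, Slc25a36, Slc25a38 and Slc25a41 and ended no call of a member. The difference in the ratio of Slc25a24 over Slc25a23 changed sign, to 0.028 with 1 CPM added and 0.15 in pairs 1 and 2, and ran from -0.12 to 0.12 with 1 library left out, and the cause was not tested. The median of the adenine nucleotide carriers, close to 0, changed sign in 4 fits. Of the called members, Slc25a13, Slc25a18, Slc25a45 and Slc25a48 held at most 84 counts in a library, where depth limits the precision.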
